A study of Mus musculus with 8 samples.

Results

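The genes described here are 10 mouse genes of cellular redox control: the NADPH oxidase gene Nox4 and its partner Cyba, the pirin gene Pir, the transcription factor gene Nfe2l2 (which encodes NRF2) and its inhibitor Keap1, and the NRF2 target genes Nqo1, Hmox1, Gclm, Txnrd1 and Srxn1. They were chosen by name, partly on the earlier measured differences in CPM between the lines, and were found among the 55401 Ensembl gene identifiers of the count table through their symbols. All 10 were present and all 10 passed the filter on low counts that left 18882 genes for testing. Because earlier results of these same libraries guided the choice, the differences of the 10 genes between the lines are given as a description, with standard errors and no p-value for any of them, and where calls are counted no support is drawn from the count. The libraries come from mouse cell lines labelled as epithelioid hemangioendothelioma (EHE), a vascular tumour of endothelial origin: 2 libraries of the line EHE26, 3 of EHE17 and 3 of EHE6. The labels give no treatment, genotype or time for any line, and nothing in them says that replicates are separate cultures, so p-values below measure only the spread between these libraries.

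NADPH oxidases move electrons from NADPH onto oxygen and so make superoxide or hydrogen peroxide on purpose. NOX4 is the form typical of endothelium, kidney tubule and stromal cells, and it needs the small membrane subunit p22phox, the product of Cyba, to be stable. NRF2 is the main regulator of the transcriptional response to oxidants: KEAP1 directs it to degradation, and when KEAP1 is modified by electrophiles NRF2 binds antioxidant response elements (AREs) near genes for quinone reduction, heme breakdown, glutathione synthesis and thioredoxin reduction. Pirin is an iron-binding nuclear protein of the cupin family whose gene is itself described as an NRF2 target in human cells.

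Total counts lay between 44620965 and 96237665, and levels are read counts scaled to library size (CPM) after TMM scaling. The libraries fell into 2 sets by the sign of their score on the first principal component, which took up 56.2% of the variance. The first set held replicates 1 and 2 of EHE17 and of EHE6, and the second set held both EHE26 libraries and the remaining EHE17 and EHE6 libraries, which are replicate 3 of each line. EHE26 therefore has no library in the first set, and the line and the set cannot be told apart in any comparison of EHE26 that uses first-set libraries. EHE17 replicate 3 lay between the sets, with a score of 41.69. The other second-set libraries scored 126.2 to 148, and those of the first set -121.9 to -102.6. Of 10 endothelial markers 9 reached 10 CPM in every library of EHE26 and of EHE6, and all 10 did in EHE17, so most of them were read in all 3 lines. The exception was Cldn5, a tight junction gene, at 0.526 to 7.95 CPM in EHE26, 279 to 770 CPM in EHE17 and 1.05 to 402 CPM in EHE6.

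Nox4 and Pir carried the largest differences among the 10 genes, and their promoters are shown for that reason. The windows run from 250 bases before to 50 bases after the annotated start (RefSeq, build GRCm38.p6, plus strand). Capitals mark the ARE core, searched as TGACNNNGC on both strands. The Nox4 window is chr7:87246399-87246698 and the Pir window is chrX:164269181-164269480.
Nox4 promoter: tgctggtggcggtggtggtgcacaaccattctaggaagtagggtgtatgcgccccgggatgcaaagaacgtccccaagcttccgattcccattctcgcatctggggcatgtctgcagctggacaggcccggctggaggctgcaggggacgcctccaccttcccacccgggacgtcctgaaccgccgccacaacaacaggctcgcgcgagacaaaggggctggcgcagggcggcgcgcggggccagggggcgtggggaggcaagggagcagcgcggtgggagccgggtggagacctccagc
Pir promoter: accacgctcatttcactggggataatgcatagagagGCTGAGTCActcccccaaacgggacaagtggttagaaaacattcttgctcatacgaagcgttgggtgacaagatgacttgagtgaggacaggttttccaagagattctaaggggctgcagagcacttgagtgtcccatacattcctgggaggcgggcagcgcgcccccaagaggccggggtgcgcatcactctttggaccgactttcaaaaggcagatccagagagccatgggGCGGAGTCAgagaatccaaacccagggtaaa
The Pir window held 2 ARE cores, the first with its leftmost base 214 bases before the start and the second 20 bases into the transcript. The first of them also contains an AP-1 site, searched as TGANTCA, inside its letters. The Nox4 window held neither motif, which says only that these letters are not in these 300 bases. GENCODE M21, the source of the gene positions below, starts Nox4 at 87246096. The RefSeq window thus lies inside that gene model, and no bases before the GENCODE start were searched. Across all 32851 mouse promoter windows of this length 12.4% held an ARE core, 7.81% an AP-1 site and 0.454% an AP-1 site lying within an ARE core.

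Promoter windows were at hand for 9 of the 10 genes, with Hmox1 named only, and an ARE core was found for 5 of the 9: Pir, Nfe2l2, Gclm, Txnrd1 and Srxn1. The sites outside Pir are printed with 10 bases on either side, as read along the gene's own strand, because they show how far the cores differ from one another in the 3 free positions. They lie at chr2:75704885-75704913 on the minus strand for Nfe2l2, chr3:122245413-122245441 for Gclm, chr10:82859104-82859132 for Txnrd1 and chr2:152105542-152105570 for Srxn1.
Nfe2l2 site: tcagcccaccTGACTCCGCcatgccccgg
Gclm site: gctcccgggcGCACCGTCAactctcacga
Txnrd1 site: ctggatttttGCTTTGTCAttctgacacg
Srxn1 site: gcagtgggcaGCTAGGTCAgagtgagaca
The Txnrd1 match came from 1 of its 3 annotated starts. In the wider list of NRF2 target enzymes and transporters, 11 of 35 windows held a core. A match is a run of letters and not a bound site.

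**Figure D1:**
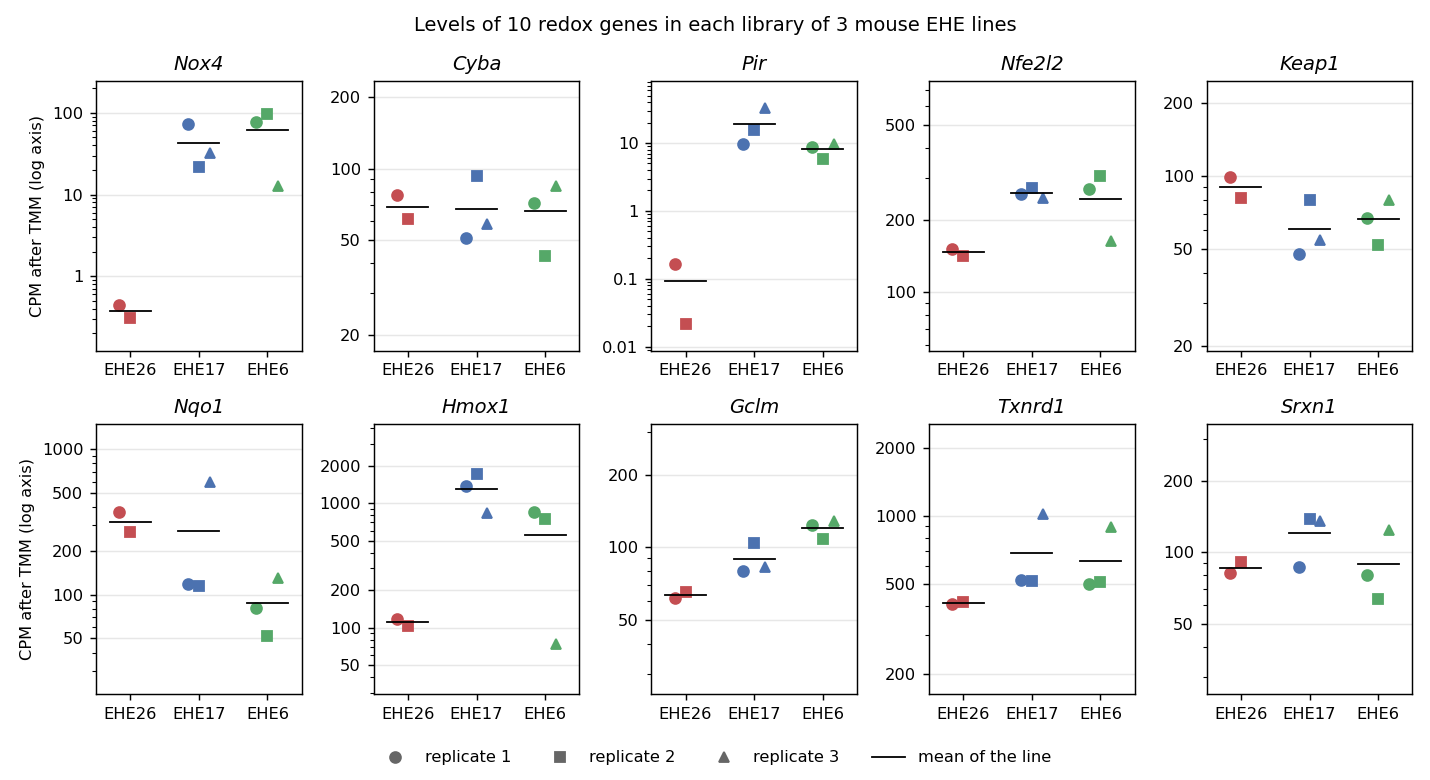
Level of each of the 10 redox genes in every library, as CPM after TMM on log axes that differ between panels; points are libraries, marker shape is the replicate number and the black line is the mean of the line. Nox4 and Pir stand below 1 CPM in both EHE26 libraries and between 5.73 and 97.8 CPM in all other libraries, while the 3 lines overlap for Cyba and Srxn1.

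Nox4 (ENSMUSG00000030562, chromosome 7, 87246096 to 87398710) was close to silent in EHE26. It had 0.441 and 0.307 CPM in the EHE26 libraries, from 24 and 14 reads. In EHE17 it had 72.7, 21.9 and 32.2 CPM in replicates 1, 2 and 3, and in EHE6 it had 76.8, 97.8 and 12.5 CPM. Every EHE26 library was far below every library of the other lines, whereas EHE17 and EHE6 overlapped. The 38 EHE26 reads together gave 0.380 CPM with an exact Poisson 95% interval of 0.269 to 0.522 CPM, which covers counting error only. The lines averaged 0.374 ± 0.0951 CPM in EHE26 (SD, n = 2), 42.3 ± 26.8 CPM in EHE17 (n = 3) and 62.4 ± 44.4 CPM in EHE6 (n = 3). The fitted log2 fold change was -7.37 ± 1.15 (SE) when EHE26 was set against EHE6 and -6.81 ± 1.12 when it was set against EHE17. For EHE17 against EHE6 it was -0.56 ± 0.71, smaller than its own error, so those neighbours in the order of levels did not differ beyond their spread.

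Within the second set, the mean Nox4 level of EHE26 was 86.1 times below that of EHE17 replicate 3 and 33.5 times below that of EHE6 replicate 3. The level also moved with the set inside a line: replicate 3 was 1.47 times below the mean of replicates 1 and 2 in EHE17, where it still exceeded replicate 2, and 6.96 times below it in EHE6. NOX4 is a gene of endothelium, so the 10 endothelial markers are set beside it. They summed to 4862 and 3769 CPM in EHE26, 9091, 10140 and 6298 CPM in EHE17 and 10420, 11980 and 2594 CPM in EHE6, so the sum was below all EHE17 libraries and lowest in EHE6 replicate 3. Their median log2 fold change was -1.52 for EHE26 against EHE6, with all 10 negative and 0 separated between the lines, and -1.68 for EHE26 against EHE17, with 9 negative and 7 separated, where 31.3% and 39.0% of all tested genes were separated. The smallest edgeR adjusted p of the 10 was 0.268 against EHE6 and 0.223 against EHE17. Without EHE6 replicate 3, edgeR called Kdr, Tek, Tie1, Robo4 and Cldn5 lower in EHE26 against EHE6. It called Kdr, Tie1, Egfl7, Robo4 and Cldn5 lower against EHE17, and the rest of the 10 were not called. That fit called 1632 and 1415 genes of the whole table, against 237 and 203 with all libraries.

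NOX4 is known from kidney epithelium and stromal cells too, so markers of both are also set beside it. The 8 epithelial markers went different ways. Epcam and Cdh1 were read almost only in the first set, whereas Krt18 and Krt19 were highest in EHE6 replicate 3. Epcam had at most 0.0368 CPM in EHE26, 3.89 and 8.13 CPM in EHE17 replicates 1 and 2 and 9.79 and 4.97 CPM in EHE6 replicates 1 and 2. It had no read in replicate 3 of EHE17 or EHE6. The summed level of all 8 epithelial markers was 3.75 to 31.5 CPM in EHE26, 1.20 to 30.7 CPM in EHE17 and 23.9 to 105 CPM in EHE6, with Krt5 at 0 in EHE26. Krt18 made up most of the top sums, with 28.3 CPM in EHE26 replicate 2 and 89.2 CPM in EHE6 replicate 3. It had 4.30 to 7.83 CPM in the first set. Krt19 had 2.83 and 14.7 CPM in the same libraries and at most 0.395 CPM in the first set. Epcam and Cdh1 had no read in replicate 3 of EHE17 and of EHE6, where Nox4 was at 32.2 and 12.5 CPM. The 12 fibroblast and mural markers summed to 338 to 582 CPM in EHE26, 43.7 to 323 CPM in EHE17 and 338 to 716 CPM in EHE6. The markers within that sum went different ways, and Acta2 alone made up 659 of the 716 CPM in EHE6 replicate 1. Pdgfra had 77.5 and 59.8 CPM in EHE26, 1.14 to 1.76 CPM in EHE17 and 3.87, 5.21 and 252 CPM in EHE6. Cspg4, a pericyte proteoglycan, had 18.5 and 24.5 CPM in EHE26, at most 0.432 CPM in EHE17 and at most 2.02 CPM in EHE6. Cspg4 was the 1 of the 12 called, higher in EHE26 against EHE17 (6.08 ± 0.95, edgeR adjusted p = 0.0323), and the call held in 2 of 8 fits without 1 library, those without EHE6 replicate 1 or 3, and was lost with the set as a term. The part of these cell types in the Nox4 level was not tested, and in RNA from whole cultures fewer cells of a type and less RNA per cell cannot be told apart.

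Cyba, which encodes the p22phox partner of NOX4, did not share the pattern. Its level was 77.2 and 61.4 CPM in EHE26, 51.0, 93.1 and 58.4 CPM in EHE17 and 71.6, 43.0 and 84.7 CPM in EHE6. The 3 lines overlapped fully and the library extremes differed by 2.16 times. The log2 fold change was 0.06 ± 0.37 for EHE26 against EHE6, 0.04 ± 0.37 for EHE26 against EHE17 and 0.02 ± 0.33 for EHE17 against EHE6. Per kilobase of exon Cyba was the more abundant of the pair in every line: EHE26 had 66.7 ± 10.8 CPM per kb of Cyba and 0.0442 ± 0.0112 of Nox4, EHE17 had 65.0 ± 21.6 and 4.99 ± 3.17, and EHE6 had 64.0 ± 20.5 and 7.37 ± 5.25.

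The rest of the NADPH oxidase list was measured for the same question. Of its 16 other genes 11 passed the filter and none was called in any comparison, where a call needs an adjusted p under 0.05 (edgeR, Benjamini-Hochberg over all tested genes) and a log2 fold change of 1 or more in either direction. Cybb, the phagocyte oxidase NOX2, stayed between 0.373 and 1.89 CPM in the 8 libraries. Rac1, the GTPase that activates several oxidases, lay between 404 and 531 CPM, and Poldip2, described as an activator of NOX4, between 60.9 and 108 CPM. Poldip2 had 64.8 and 60.9 CPM in EHE26, below all libraries of the other lines, with a log2 fold change of -0.28 ± 0.24 against EHE6 (adjusted p = 0.619) and -0.53 ± 0.25 against EHE17 (adjusted p = 0.318).

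Pir (ENSMUSG00000031379, chromosome X, 164269371 to 164373011) was the other gene with almost no reads in EHE26. It had 0.166 and 0.0219 CPM in the EHE26 libraries, from 9 reads and 1 read. In EHE17 it had 9.64, 15.5 and 32.7 CPM, and in EHE6 it had 8.79, 5.73 and 9.81 CPM. The EHE26 libraries lay below all others, and EHE17 and EHE6 overlapped in that EHE17 replicate 1 was below EHE6 replicate 3. The 10 EHE26 reads together gave 0.100 CPM, with an exact Poisson 95% interval of 0.0480 to 0.184 CPM. The lines averaged 0.0937 ± 0.102 CPM in EHE26 (SD, n = 2), 19.3 ± 11.98 CPM in EHE17 (n = 3) and 8.11 ± 2.13 CPM in EHE6 (n = 3). The log2 fold change was -6.37 ± 0.96 for EHE26 against EHE6, -7.61 ± 1.01 for EHE26 against EHE17 and 1.25 ± 0.62 for EHE17 against EHE6. Replicate 3 had the highest Pir level of its line, 1.38 log2 units above the mean of replicates 1 and 2 in EHE17 and 0.43 above it in EHE6, so within the second set the log2 ratio of EHE26 was -8.45 over EHE17 replicate 3 and -6.71 over EHE6 replicate 3.

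The genes beside Pir on the X chromosome did not follow it. Bmx, a tyrosine kinase gene of arterial endothelium that ends 11.2 kb before Pir, had 27.0 and 8.81 CPM in EHE26, 6.09, 8.05 and 16.6 CPM in EHE17 and 1.60, 1.64 and 1.13 CPM in EHE6. It rose in EHE26 against EHE6 by 3.61 ± 0.62 log2 units (edgeR adjusted p = 0.0375) and did not pass the test for EHE26 against EHE17 (0.81 ± 0.59, adjusted p = 0.505). The call against EHE6 was lost with the set added to the model, with only the lines compared, and without EHE26 replicate 1, EHE17 replicate 1 or 2, or EHE6 replicate 1 or 2 (log2 fold change 2.59 to 4.22 and adjusted p 0.0278 to 0.278 with 1 library left out). Vegfd, the gene of a lymphatic growth factor that begins 0.367 kb after the end of Pir, was read mainly in EHE26. It had 38.4 and 22.4 CPM in EHE26, at most 1.06 CPM in EHE17 and at most 2.10 CPM in EHE6. Its log2 fold change was 5.14 ± 1.07 against EHE6 (adjusted p = 0.0782) and 5.43 ± 1.08 against EHE17 (adjusted p = 0.0686), neither of which passed. Piga and Mospd2, the next tested genes, had 13.6 ± 1.04 and 43.5 ± 1.21 CPM in EHE26, 10.4 ± 3.95 and 47.2 ± 25.1 CPM in EHE17 and 12.8 ± 0.964 and 34.0 ± 4.88 CPM in EHE6. Cltrn, a kidney gene on the other side, had no read in EHE26 and none in replicate 3 of EHE17 or EHE6, and 3.07 to 11.3 CPM in the first set. Near-silence of Pir in EHE26 thus stood between adjoining genes that were read there.

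**Figure D2:**
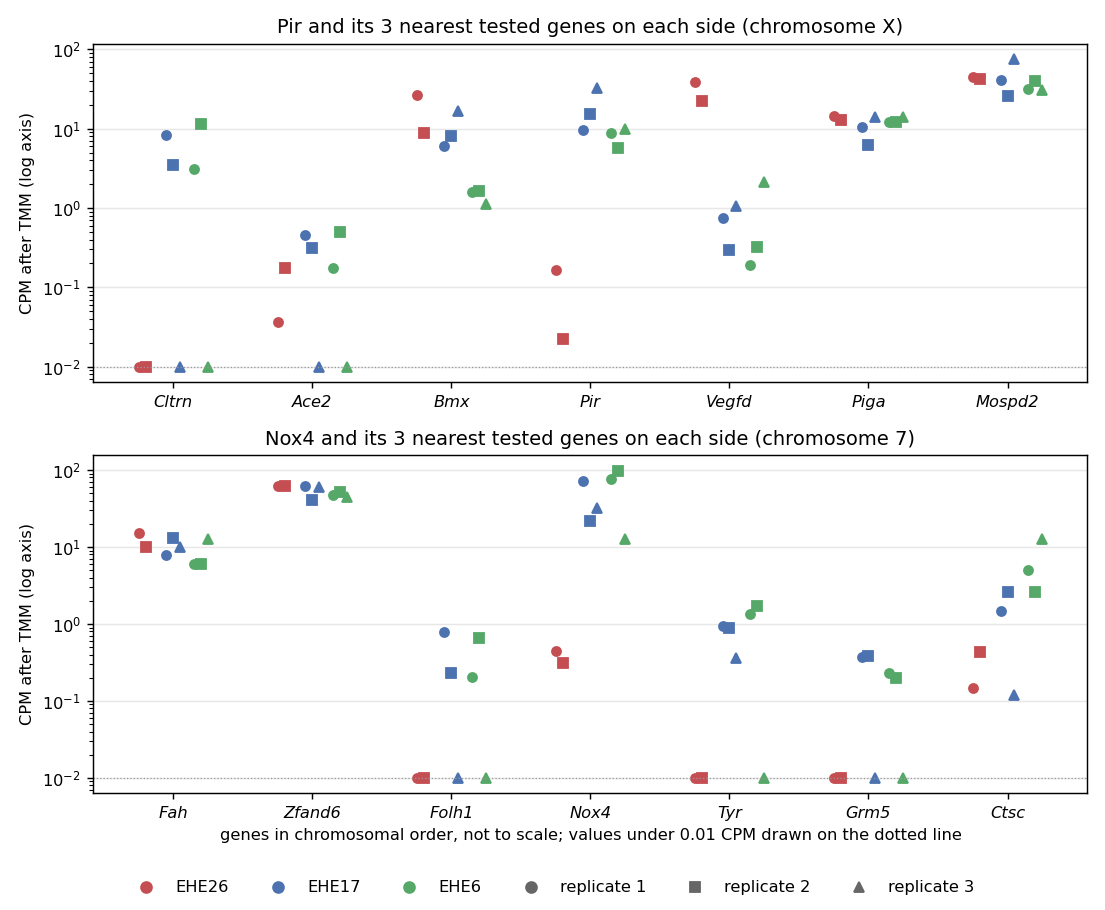
Level of Pir (top) and Nox4 (bottom) with their 3 nearest tested genes on each side in chromosomal order, as CPM after TMM on a log axis; points are libraries, colour is the line, shape is the replicate, and values under 0.01 CPM sit on the dotted line. Bmx and Vegfd on both sides of Pir are read in EHE26 while Pir is not above 0.166 CPM, and Tyr, Grm5 and Folh1 beside Nox4 have at most 1.72 CPM in any library.

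Around Nox4 the genes Tyr, Grm5 and Folh1 were themselves hardly read. Tyr, the pigment gene 26.1 kb downstream, had no read in EHE26, 0.361 to 0.932 CPM in EHE17 and 0 to 1.72 CPM in EHE6. Grm5 and Folh1 also had no read in EHE26, nor in replicate 3 of EHE17 or EHE6, and at most 0.387 and 0.795 CPM in any library. Ctsc, a lysosomal protease gene 879 kb downstream, had 0.147 and 0.439 CPM in EHE26, 1.48, 2.61 and 0.120 CPM in EHE17 and 4.98, 2.58 and 12.6 CPM in EHE6. Its log2 fold change of -4.52 ± 1.40 for EHE26 against EHE6 did not pass the test (edgeR adjusted p = 0.203). Zfand6 and Fah, 2556 and 2639 kb upstream, were read in every line. Zfand6 averaged 62.4 ± 0.758 CPM in EHE26, 54.8 ± 11.8 CPM in EHE17 and 48.3 ± 3.83 CPM in EHE6, and none of the 6 neighbours of Nox4 was called in any comparison.

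**Figure D3:**
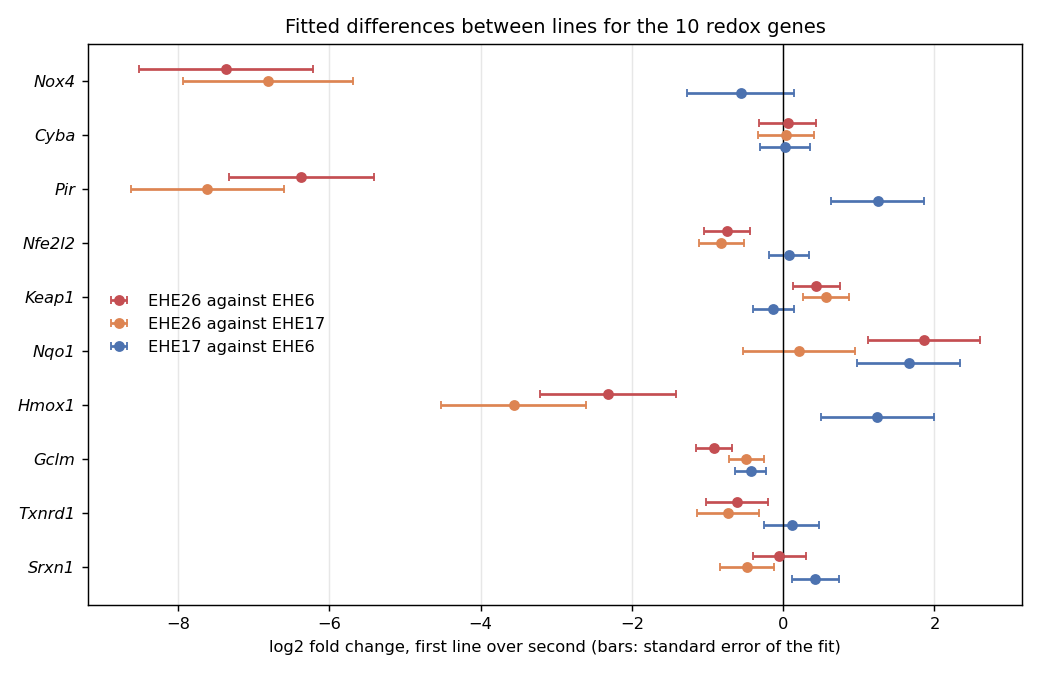
Fitted log2 fold change of each of the 10 genes in the 3 comparisons, first-named line over second; points are edgeR estimates and bars are 1 standard error on either side. Nox4 and Pir lie beyond -6 in both comparisons of EHE26, Hmox1 lies at -2.31 and -3.56, and the other genes lie between -0.92 and 1.86.

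For EHE26 against EHE6, 2 of the 10 genes met the calling threshold, both lower in EHE26, where 0.159% of all tested genes were called lower and 1.26% were called in either direction. For EHE26 against EHE17 the same 2 genes met it, where 0.185% of all tested genes were called lower and 1.08% in either direction. For EHE17 against EHE6 edgeR called 0 of the 10, where 0.143% of all tested genes were called. At an unadjusted p under 0.05 there were 6 of the 10 for EHE26 against EHE6, 4 for EHE26 against EHE17 and 1 for EHE17 against EHE6, where 15.9%, 16.6% and 6.9% of all tested genes were. DESeq2 called 2, 3 and 0 in the same order, where it called 8.11%, 8.82% and 1.96% of the genes it gave an adjusted p. As the genes were chosen with these comparisons in view, nothing is read from these shares. Nox4 and Pir ranked 9 and 11 of the 30 genes called lower in EHE26 against EHE6, and 9 and 5 of the 35 called lower against EHE17. Their calls depended on single libraries, and the size of their log2 fold changes did so in part. Over the 8 fits that each left out 1 library, Nox4 stayed between -7.84 and -6.89 against EHE6 and between -7.12 and -6.16 against EHE17, and it was called in 3 and 1 of those fits. Pir stayed between -8.41 and -5.59 and between -9.66 and -6.85, and it was called in 3 and 4. The ends of both Pir ranges were the fits without an EHE26 library, -8.41 and -9.66 without replicate 1 and -5.59 and -6.85 without replicate 2. Against EHE17, Pir was -7.00 without EHE17 replicate 3 and Nox4 was -6.16 without EHE17 replicate 1. Against EHE6 both calls were lost without EHE6 replicate 1 or 2, EHE17 replicate 2 or either EHE26 library. Against EHE17 both were lost without EHE17 replicate 1 or 2 or either EHE26 library, and Nox4 also without EHE6 replicate 1 or 2 or EHE17 replicate 3. With only the libraries of the lines compared in the fit, both calls were lost against EHE6 and both held against EHE17. The comparisons share libraries, so the values are given side by side and not as support for each other.

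Nfe2l2, which encodes NRF2, was lower in EHE26 without reaching the threshold. It had 152 and 142 CPM in EHE26, 256, 274 and 247 CPM in EHE17 and 269, 305 and 163 CPM in EHE6. The EHE26 libraries lay below all others, and EHE6 replicate 3, which is in the same set, was nearest to them. The log2 fold change was -0.74 ± 0.30 for EHE26 against EHE6, -0.82 ± 0.30 for EHE26 against EHE17 and 0.07 ± 0.26 for EHE17 against EHE6. With the set added to the model the values for EHE26 were -0.41 and -0.53. Keap1, the inhibitor, had the opposite sign: 99.0 and 81.5 CPM in EHE26, above all libraries of EHE17 (47.7, 79.9 and 54.9 CPM) and of EHE6 (67.3, 52.1 and 80.2 CPM). Its log2 fold change was 0.44 ± 0.31, 0.57 ± 0.31 and -0.13 ± 0.28 in the same 3 comparisons, with the top EHE17 and EHE6 libraries within 2 CPM of the lower EHE26 library. The exons of Keap1 share 510 bases, 10.9% of its exon length, with the antisense gene Gm16754, and those of Gclm share 296 bases with Gm17494. The strand setting of the counting is not given in the sources used here, so reads there cannot be assigned to one gene, although these antisense genes had at most 85 and 88 counts in any library.

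The other regulators of NRF2 gave 0 calls among 14 tested genes in each comparison. Bach1, a repressor that competes at AREs, had 62.9 and 52.6 CPM in EHE26, above all libraries of EHE17 (29.5 to 48.5 CPM) and EHE6 (27.3 to 43.0 CPM), but did not pass the test (0.82 ± 0.32 against EHE6, adjusted p = 0.291). Sqstm1, whose product p62 sequesters KEAP1, had 618 and 626 CPM in EHE26, 800 to 1382 CPM in EHE17 and 577 to 788 CPM in EHE6, and its log2 fold change of -0.79 ± 0.31 for EHE26 against EHE17 had an adjusted p of 0.267. The partner gene Mafg ranged from 52.3 to 84.7 CPM and Cul3, the ubiquitin ligase scaffold used by KEAP1, from 62.3 to 154 CPM, with the lines overlapping in the comparisons of EHE26.

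The 5 established target genes did not share a pattern. Nqo1, the quinone reductase, was high in EHE26 and Hmox1, the heme-degrading oxygenase, was low there. Nqo1 had 369 and 269 CPM in EHE26, 119, 114 and 595 CPM in EHE17 and 81.1, 52.0 and 130 CPM in EHE6. EHE26 was above every EHE6 library, and EHE17 replicate 3 lay above both EHE26 libraries while EHE17 replicates 1 and 2 lay below them. The log2 fold change of Nqo1 was 1.86 ± 0.74 for EHE26 against EHE6, 0.21 ± 0.74 for EHE26 against EHE17 and 1.66 ± 0.68 for EHE17 against EHE6. Without EHE17 replicate 3 the last was 0.41 and the value for EHE26 against EHE17 was 1.45. With the set as a term Nqo1 in EHE26 against EHE6 was 0.76.

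Hmox1 had 118 and 104 CPM in EHE26, 1372, 1723 and 835 CPM in EHE17 and 842, 742 and 73.3 CPM in EHE6. EHE26 was below all EHE17 libraries, but EHE6 replicate 3 had the lowest level of all 8 libraries. The log2 fold change was -2.31 ± 0.90 for EHE26 against EHE6, -3.56 ± 0.96 for EHE26 against EHE17 and 1.25 ± 0.74 for EHE17 against EHE6. Within the second set Hmox1 in EHE26 was 0.60 log2 units above EHE6 replicate 3, and 2.91 below EHE17 replicate 3. With the set as a term the value against EHE6 was -0.52. EHE26 thus lay below the first-set libraries of EHE6 and above its second-set library for this gene.

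Gclm, the modifier subunit of the enzyme that starts glutathione synthesis, separated the 3 lines completely. It had 62.1 and 65.3 CPM in EHE26, 79.9, 105 and 83.2 CPM in EHE17 and 124, 108 and 129 CPM in EHE6, a spread within each line of at most 1.31 times. The line means ordered as 63.7 ± 2.29 CPM in EHE26 (SD, n = 2), 89.2 ± 13.4 CPM in EHE17 (n = 3) and 120 ± 10.8 CPM in EHE6 (n = 3). Its log2 fold change was -0.92 ± 0.24 for EHE26 against EHE6, -0.49 ± 0.23 for EHE26 against EHE17 and -0.43 ± 0.21 for EHE17 against EHE6, under the size needed for a call in each. Gclc, the catalytic subunit of the same enzyme, overlapped between all lines, with 96.1 and 85.0 CPM in EHE26, 77.1 to 112 CPM in EHE17 and 63.4 to 92.0 CPM in EHE6.

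Txnrd1, which reduces thioredoxin, had 410 and 418 CPM in EHE26, 524, 519 and 1016 CPM in EHE17 and 500, 511 and 894 CPM in EHE6. EHE26 was the lowest line, and replicate 3 of the other lines stood apart at the top, 0.96 log2 units above replicates 1 and 2 in EHE17 and 0.82 in EHE6. The log2 fold change was -0.62 ± 0.41 for EHE26 against EHE6, -0.73 ± 0.41 for EHE26 against EHE17 and 0.11 ± 0.36 for EHE17 against EHE6, and with the set as a term the EHE26 values were -1.16 and -1.25. Srxn1, which repairs overoxidised peroxiredoxins, had 81.5 and 90.8 CPM in EHE26, 86.5, 138 and 136 CPM in EHE17 and 80.1, 63.6 and 124 CPM in EHE6. The lines overlapped and the log2 fold change was -0.05 ± 0.35, -0.48 ± 0.35 and 0.43 ± 0.31 in the same order of comparisons.

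Counted over the 10 genes, the EHE26 libraries did not overlap those of EHE6 for 7, with 5 lower and 2 higher in EHE26, where 31.3% of all tested genes were separated. Against EHE17 they were separated for 7, with 6 lower and 1 higher, where 39.0% of all tested genes were. Between EHE17 and EHE6 only Gclm was separated, where 12.2% of tested genes were. The median log2 fold change of the 10 genes was -0.68 for EHE26 against EHE6, -0.61 for EHE26 against EHE17 and 0.09 for EHE17 against EHE6, and over all tested genes it was -0.11, -0.12 and -0.03. The most abundant of the 10 per kilobase of exon was Nqo1 in EHE26, at 205 ± 45.5 CPM per kb, and Hmox1 in the other lines, at 748 ± 256 CPM per kb in EHE17 and 316 ± 239 CPM per kb in EHE6. Nox4 and Pir were the lowest of the 10 per kilobase in every line.

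**Figure D4:**
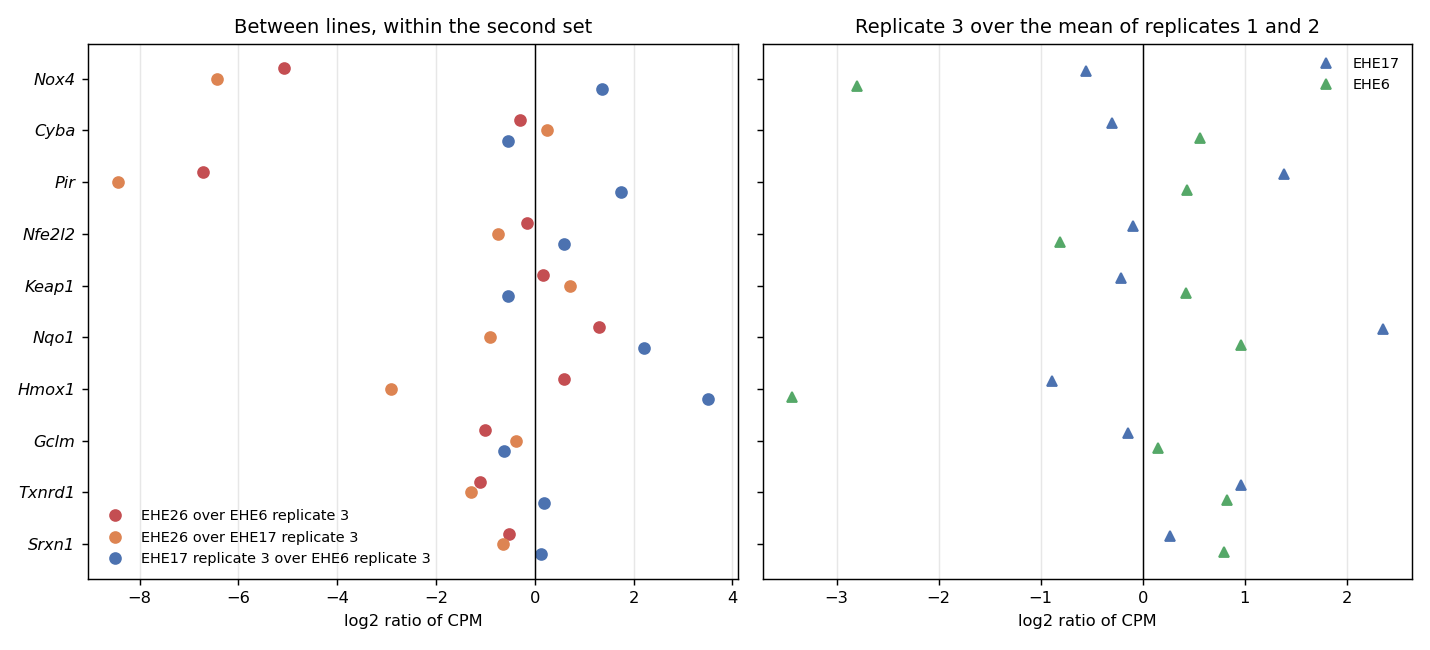
Left, log2 ratio of CPM between lines using second-set libraries only, with the mean of both EHE26 libraries over replicate 3 of EHE6 or EHE17 and EHE17 replicate 3 over EHE6 replicate 3; right, log2 ratio of replicate 3 over the mean of replicates 1 and 2 within EHE17 and EHE6. Nox4 and Pir in EHE26 remain between -8.45 and -5.07 on the left, and on the right Nox4 and Hmox1 in EHE6 lie at -2.80 and -3.43 while Nqo1 in EHE17 reaches 2.35.

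Replicate 3 differed from replicates 1 and 2 of its own line in a gene-specific way. In EHE17, the log2 ratio of replicate 3 over replicates 1 and 2 was 2.35 for Nqo1, 1.38 for Pir and 0.96 for Txnrd1, and -0.89 for Hmox1 and -0.55 for Nox4. In EHE6 it was -3.43 for Hmox1, -2.80 for Nox4 and -0.81 for Nfe2l2, and 0.96 for Nqo1, 0.82 for Txnrd1 and 0.79 for Srxn1. Each value compares 1 library with the mean of the others and has no replicate check. Within the second set EHE17 replicate 3 was above EHE6 replicate 3 by 3.51 log2 units for Hmox1, 2.20 for Nqo1, 1.74 for Pir and 1.36 for Nox4. In the first set the same lines differed by 0.97 for Hmox1, 0.81 for Nqo1 and 0.79 for Pir, and by -0.89 for Nox4, which had the opposite sign there.

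The lists around the 10 genes covered 113 other redox genes, of which 108 were tested. By edgeR 0 of them were called in any comparison. At an unadjusted p under 0.05 there were 16 for EHE26 against EHE6, 18 for EHE26 against EHE17 and 11 for EHE17 against EHE6. Over all tested genes the shares were 15.9%, 16.6% and 6.9%, so the first 2 counts lie at the background. DESeq2 called 3, 10 and 2 in the same order, where it called 8.11%, 8.82% and 1.96% of all genes. The 3 were Gpx1, Steap3 and Ggt5, named after their values were seen. Gpx1, the main cytosolic glutathione peroxidase, had 17.9 and 38.6 CPM in EHE26, 62.0, 71.5 and 96.6 CPM in EHE17 and 211, 151 and 97.3 CPM in EHE6. The 3 lines did not overlap for Gpx1, and its log2 fold change of -2.44 ± 0.48 for EHE26 against EHE6 had an edgeR adjusted p of 0.0614 and a DESeq2 adjusted p of 0.000205.

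By list, the 26 other NRF2 target enzymes and transporters had a median log2 fold change of -0.000172 for EHE26 against EHE6, -0.24 for EHE26 against EHE17 and 0.28 for EHE17 against EHE6. Slc7a11, the cystine importer, had 9.73 and 23.4 CPM in EHE26, 23.4, 18.3 and 63.4 CPM in EHE17 and 19.7, 18.9 and 28.0 CPM in EHE6. Me1, which makes NADPH, ranged from 87.3 to 143 CPM over all libraries, Gsr, glutathione reductase, from 42.3 to 106 CPM, and Prdx1, a peroxiredoxin, from 163 to 489 CPM. Txn1, thioredoxin itself, had 335 and 401 CPM in EHE26, 173, 154 and 363 CPM in EHE17 and 242, 145 and 236 CPM in EHE6, and did not pass the test (0.83 ± 0.42 against EHE6, adjusted p = 0.363). Fth1, the iron-storing ferritin heavy chain and like Hmox1 a gene of iron handling, had 7333 CPM in EHE17 replicate 3 and between 904 and 2193 CPM in the other 7 libraries. The superoxide and peroxide removers Sod2 and Cat ranged from 31.0 to 47.6 CPM and from 84.9 to 139 CPM, and Hmox2, the constitutive heme oxygenase, from 29.0 to 68.7 CPM.

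**Figure D5:**
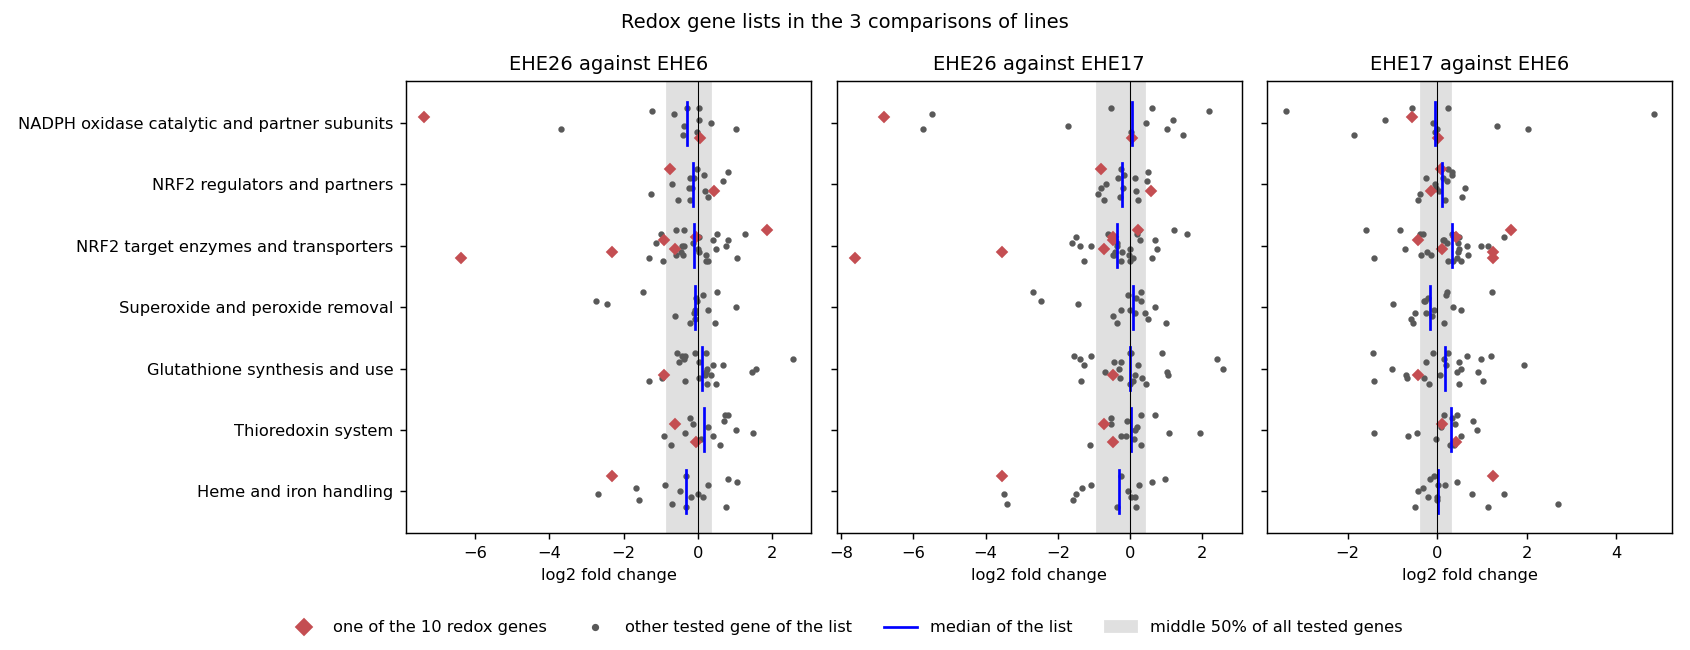
Log2 fold change of every tested gene of 7 redox lists in the 3 comparisons; red diamonds are the 10 genes described here, grey points other list genes, the blue bar the median of the list and the shaded band the middle 50% of all tested genes. The medians lie between -0.365 and 0.337 in all lists, and Nox4 and Pir are the lowest genes of their lists in both comparisons of EHE26.

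The genes with a level most like that of Nox4 over the 8 libraries, by Pearson correlation of log2 CPM among 9873 tested genes with a mean of at least 10 CPM in some line, were Kctd12b (0.982), Fam213a (0.979), Peg12 (0.975), Sox13 (0.975) and mt-Nd4 (0.968). Sox13, a transcription factor gene, averaged 0.560 ± 0.171 CPM in EHE26, 36.7 ± 7.84 CPM in EHE17 and 42.3 ± 31.8 CPM in EHE6. For Pir they were Tti1 (0.987), Eps8l1 (0.971), Gdpd1 (0.956), Cbfa2t3 (0.951) and Samd10 (0.949). Eps8l1, of an actin-regulator family, averaged 0.550 ± 0.158 CPM in EHE26, 30.4 ± 3.69 CPM in EHE17 and 14.9 ± 2.56 CPM in EHE6, the same order of lines as Pir. Among the 10 genes themselves Nox4 correlated at 0.902 with Nfe2l2, 0.891 with Pir and 0.756 with Hmox1, at -0.328 with Cyba, -0.591 with Nqo1 and -0.779 with Keap1. The 8 points share only 3 lines and 2 sets, so these coefficients describe the libraries and are not tests.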

How the data were processed

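RNA of 8 libraries from 3 mouse EHE lines was extracted with an RNeasy Mini kit and made into polyA-selected libraries with NEBNext Ultra II chemistry, per the labels' protocols. Reads were aligned with HISAT2 to mm10, per the submitters' processing notes; which tool counted them, with what annotation and strand setting, is not given in the sources used here. The authors deposited raw counts per Ensembl gene, and each sample's file holds the same values as its column of the series table (8 of 8). Symbols and positions came from GENCODE M21 (GRCm38), which holds 55141 of the 55401 identifiers, the rest of which held 0.0181% of a library's counts or less.

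Counts were scaled with TMM, filtered with filterByExpr by line and fitted with the quasi-likelihood model of edgeR 4.0.16 (R 4.3.3) with line as its single factor over the 8 libraries together. P-values were adjusted with the Benjamini-Hochberg method over the 18882 genes tested, and a call needs that value to be under 0.05 with a log2 fold change of 1 or more either way. The SE is the size of the log2 fold change over the square root of F. CPM per kb uses merged exon length. The spread between libraries was large (common biological coefficient of variation 0.600), and Poisson intervals (95%) cover counting error only. For correlations, 2 was the prior count of the log2 CPM. Promoters are RefSeq windows on GRCm38.p6. The steps were tested on simulated data.

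The 10 genes and the 7 pathway lists were chosen with earlier results of these data known. Named besides the 10 are all called list genes, 17 fixed genes and the 5 genes most like Nox4 and Pir, leaving out predicted genes. The alternatives were RLE size factors, DESeq2 1.42.0, no filter on low counts, the replicate number as a block, the set as a term, leaving out libraries, a fit on the lines compared alone and CPM without TMM. The numbers shared by EHE17 and EHE6 were checked as pairs through the departures of the libraries from their line means. Same-numbered libraries correlated across genes at 0.132, 0.18 and 0.574, the last between the replicates 3, which are both in the second set. EHE17 replicates 2 and 1 correlated more closely with EHE6 replicates 1 and 2 crosswise (0.536 and 0.623). The number is therefore not taken as a pairing, and the main fit has no replicate block. For EHE26 the same-numbered values were -0.0636 and -0.115 with EHE17 and 0.182 and -0.0981 with EHE6. They cannot decide a pairing, because departures of 2 libraries from their own mean are mirror images.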

Additional observations from a re-analysis of the deposited data

How the results depend on the processing

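Over the alternatives tried, no log2 fold change of a gene named above that had been called took the opposite sign. Of the 450 refitted values of the 10 genes, at least 406 stayed on the same side of the calling threshold, whatever their sign. Values that were not called could change sign, as Nqo1 did in EHE26 against EHE17 (0.21, and -0.51 with the set as a term). The number of genes called over the whole table was less stable than the values of Nox4 and Pir. In the order EHE26 against EHE6, EHE26 against EHE17 and EHE17 against EHE6 it was 237, 203 and 27. It was 1575 (649 higher and 926 lower), 1713 (673 and 1040) and 393 (245 and 148) with DESeq2, and 547, 745 and 142 with no filter on low counts. It was 356, 319 and 102 with the set as a term, 4302 (1732 and 2570), 4150 (1605 and 2545) and 147 without replicate 3 of both EHE17 and EHE6, and 126, 764 and 7 with only the lines compared. Leaving out 1 library gave 65 to 1632, 2 to 1415 and 1 to 54. Of the 10 genes, 4 were called in both comparisons of EHE26 without those replicates (Nox4, Pir, Nqo1 and Hmox1), 0 in EHE26 against EHE6 with only the lines compared, and 0 to 3, 0 to 3 and 0 to 0 with 1 library left out. The causes were not tested.

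With the replicate number as a block 1459 (674 higher and 785 lower), 1860 (918 and 942) and 33 genes were called. For EHE17 against EHE6, where pairing by number is not settled, the block changed no call of the 10 genes. It added Nqo1 in EHE26 against EHE6 (2.48) and Hmox1 in EHE26 against EHE17 (-4.26), where a pairing by number could not be checked. The mean CPM of Txnrd1 in EHE26 was 401 without TMM, against 414 with it, and the 29 other means of the 10 genes moved by less than 1 SD. Depth limits Pir most, with 10 reads in EHE26.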
